A study of Mus musculus with 10 samples.

Results

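The genes described here mark successive stages of the neural stem cell lineage of the hippocampus. They are *Nes*, *Sox2*, *Eomes*, *Neurod1*, *Dcx*, *Sox4* and *Sox11*, and their rows were found by symbol. The table of gene levels holds 15900 rows, of which 7 carry 1 of these symbols. *Nes*, *Sox2*, *Neurod1*, *Dcx* and *Sox11* have 1 row each, *Sox4* has 2, and *Eomes* was not analysed here. All 7 rows were among the 15851 genes tested.

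In the adult hippocampus, new granule neurons arise in the subgranular zone of the dentate gyrus. Radial glia-like stem cells, which contain the intermediate filament nestin and the transcription factor SOX2, give rise to dividing intermediate progenitors, and these pass through a neuroblast stage before they become granule neurons. Seizures are known to disturb this lineage, and nestin can also appear in reactive astrocytes and in blood vessels, so that in whole tissue its level is not specific to stem cells.

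Cap analysis of gene expression (CAGE), which sequences the capped 5' ends of transcripts, was applied to whole hippocampi of 10 male ICR mice aged 9 to 10 weeks. There were 5 groups of 2 mice. Pre-SE mice, labelled untreated, had no status epilepticus (SE), a state of prolonged convulsive seizures, and the study's methods describe controls given saline in place of pilocarpine (PILO). The other 8 mice were given PILO, which activates muscarinic receptors, after methyl scopolamine, which blocks these receptors outside the brain, and their SE was ended with diazepam. SE 6 h mice were sampled 6 h and SE 2 days mice 2 days after SE, without further treatment. SE + LEV 6 h and SE + LEV 2 days mice also received the anti-epileptic drug levetiracetam (LEV) by mouth from the end of SE onwards, with 1 dose before sampling at 6 h and 5 doses before sampling at 2 days. All groups with SE share PILO, methyl scopolamine and diazepam, so that their difference from pre-SE mice covers these agents as well as the seizures.

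Levels are given in CPM, the count of CAGE tags of a gene scaled to a common library total. The recovered library totals ran from 10540698 to 51710968 tags, at which 3 tags were worth 0.058 to 0.285 CPM. Differences were tested with limma on log2(CPM + 0.1) in 1 model of all 10 libraries, and logFC is a difference on that scale, which understates changes of low levels. A gene was called when its p-value, adjusted by the Benjamini-Hochberg method over all genes tested, was at most 0.05. With 2 mice against 2, an exact two-sided permutation test cannot give a p below 0.333, and the calls therefore depend on an estimate of spread drawn from all genes and groups together. In whole tissue, fewer cells of a type and less RNA per cell cannot be told apart. Summed markers of the choroid plexus, a tissue that borders the hippocampus, ran from 8.88 to 4030.75 CPM between libraries and differed widely within groups, and their part in the results was not tested. The plot of levels by mouse shows all 7 rows.

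**Figure D1:**
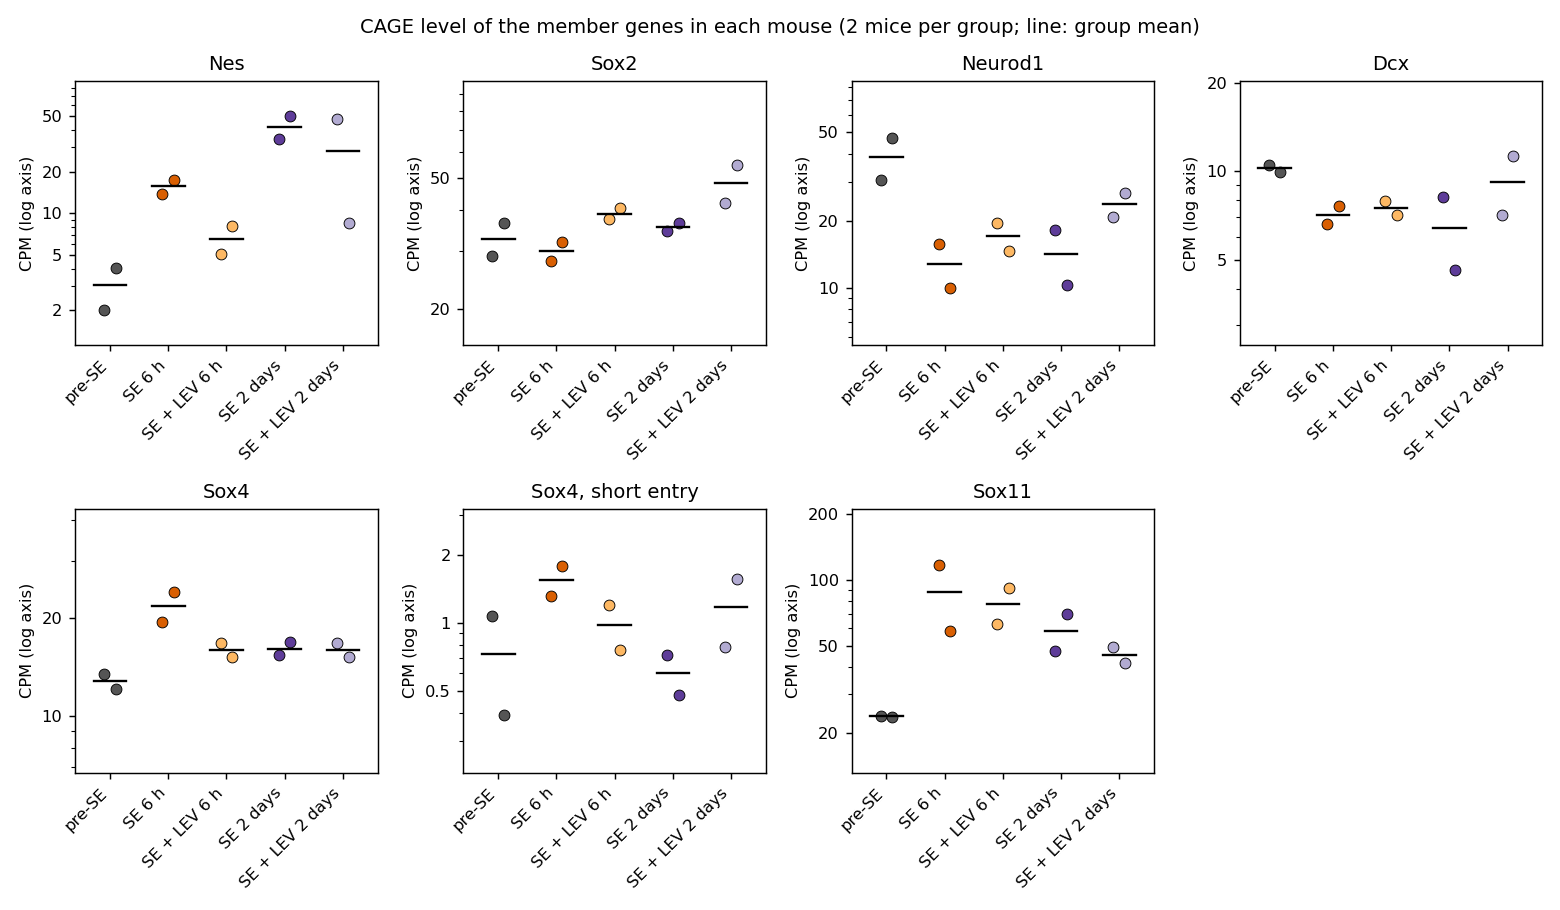
CAGE level (CPM, log axis) of each member gene in each of the 10 mice by group, with a line at the group mean. *Nes* lies between 2.03 and 4.06 CPM before SE and between 34.51 and 49.86 CPM in SE 2 days mice, *Sox11* lies above both pre-SE mice in all 8 mice with SE, and *Neurod1* lies below both pre-SE mice in all 8.

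3 members were called in a comparison of SE with pre-SE mice, and the promoters of these genes are shown because CAGE reads activity at transcription starts. The sequences are RefSeq windows of GRCm38.p6, from 250 bases before to 50 bases after the annotated start. Each was found exactly once in the mm9 genome that the study used, and mm9 positions are given. Capitals mark matches on either strand to the letters of a TATA box (TATAAA), an E-box (CANNTG), an AP-1 site (TGANTCA), a Sox core (ACAAT) or a CCAAT box (CCAAT), and no such matches overlapped in these 3 windows.
*Nes*, plus strand, chr3:87774765-87775064: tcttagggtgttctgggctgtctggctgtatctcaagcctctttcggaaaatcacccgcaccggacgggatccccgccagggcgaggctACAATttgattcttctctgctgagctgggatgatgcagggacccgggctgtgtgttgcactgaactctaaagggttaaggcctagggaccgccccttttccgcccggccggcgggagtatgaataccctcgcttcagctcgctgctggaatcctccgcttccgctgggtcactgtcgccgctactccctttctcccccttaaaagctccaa
*Sox11*, minus strand, chr12:28027534-28027833: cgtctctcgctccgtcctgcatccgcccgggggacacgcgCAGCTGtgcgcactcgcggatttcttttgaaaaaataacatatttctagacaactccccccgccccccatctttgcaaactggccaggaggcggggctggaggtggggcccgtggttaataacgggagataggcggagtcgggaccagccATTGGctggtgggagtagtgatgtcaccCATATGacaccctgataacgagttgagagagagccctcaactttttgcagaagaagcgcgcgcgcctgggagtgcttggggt
*Neurod1*, minus strand, chr2:79296744-79297043: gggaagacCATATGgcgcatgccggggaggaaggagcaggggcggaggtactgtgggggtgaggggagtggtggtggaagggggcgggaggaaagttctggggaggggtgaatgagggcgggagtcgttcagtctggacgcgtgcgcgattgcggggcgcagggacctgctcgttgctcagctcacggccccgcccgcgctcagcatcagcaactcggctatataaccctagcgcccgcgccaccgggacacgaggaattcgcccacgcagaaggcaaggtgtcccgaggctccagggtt

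Counted from the first transcribed base as position 1, the *Nes* window holds 1 Sox core from -161 to -157. The *Sox11* window holds E-boxes from -210 to -205 and from -32 to -27 and a CCAAT box on the other strand from -60 to -56, and the *Neurod1* window holds 1 E-box from -242 to -237. Of the 32544 promoter windows of the same length, 30.8% held a Sox core, 72.3% an E-box, 37.4% a CCAAT box, 13.6% a TATA box and 7.79% an AP-1 site. The exact letters TATAAA and TGANTCA were not found in the 3 windows, and other forms of a TATA box or AP-1 site were not searched. Their content of G and C was 58.7% for *Nes*, 58.7% for *Sox11* and 66.7% for *Neurod1*, with 18, 21 and 26 CpG dinucleotides, against medians of 53% and 7 over all windows.

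The first question was how the stem cell genes changed after SE. *Nes*, which encodes nestin, was higher 2 days after SE, whereas no change was called for *Sox2*, which maintains stem cell identity and is also expressed in astrocytes. *Nes* lies on chromosome 3 (mm9 chr3:87775000-87784373, plus strand), has 4 merged exons and overlaps no other annotated gene. Its level was 2.03 and 4.06 CPM in the pre-SE mice, 13.89 and 17.40 CPM in the SE 6 h mice and 34.51 and 49.86 CPM in SE 2 days mice. The 3 pairs did not overlap, and the lowest level, in a pre-SE mouse, rested on 59 tags. At 2 days *Nes* was 14.0-fold higher than in pre-SE mice (logFC = 3.80 with a standard error of 0.67, adjusted p = 0.00897 in limma, and ± gives the standard error of a logFC from here on), and at 6 h it was 5.26-fold higher without passing the threshold (logFC = 2.39 ± 0.67, adjusted p = 0.0979). The call at 2 days was lost when pre-SE replicate 1 (logFC = 3.32, adjusted p = 0.0765) or SE 2 days replicate 2 (logFC = 3.54, adjusted p = 0.104) was left out. At 6 h *Nes* passed with only the groups compared in the model (adjusted p = 0.0350) and without SE + LEV 2 days replicate 1 (adjusted p = 0.0109) or replicate 2 (adjusted p = 0.0102). The direct comparison of SE 2 days with SE 6 h mice gave a logFC of 1.41 ± 0.67 (adjusted p = 0.273).

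*Sox2* is a gene of 1 exon (mm9 chr3:34548927-34551383, plus strand) that lies within the long non-coding gene *Sox2ot* on the same strand. It measured 28.97 and 36.45 CPM before SE, 28.03 and 31.93 CPM in the SE 6 h mice and 34.64 and 36.54 CPM in SE 2 days mice. Both SE groups overlapped the pre-SE mice. The logFC was -0.12 (95% interval -0.64 to 0.40, adjusted p = 0.832) at 6 h and 0.13 (-0.39 to 0.65, adjusted p = 0.815) at 2 days, and neither sign was stable when mice were left out. Tags of *Sox2* and *Sox2ot* can be told apart only by where they start, and how the authors assigned tag clusters to genes is not given in the sources used here. *Sox2ot* measured 15.45 and 18.85 CPM before SE and 8.99 and 10.70 CPM in SE 2 days mice (logFC = -0.79 ± 0.31, adjusted p = 0.187).

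The next genes act in intermediate progenitors and early neurons. *Neurod1* encodes a basic helix-loop-helix factor that drives granule neuron differentiation and is also expressed in mature granule neurons. It measured 30.42 and 47.36 CPM before SE, 15.75 and 9.94 CPM in the SE 6 h mice and 18.19 and 10.32 CPM in SE 2 days mice. All 4 SE mice without LEV lay below both pre-SE mice. The level at 2 days was 0.363 times that of pre-SE mice and was called (logFC = -1.46 ± 0.37, adjusted p = 0.0497), and at 6 h it was 0.331 times and just outside the threshold (logFC = -1.59 ± 0.37, adjusted p = 0.0521). These adjusted p-values lie at the threshold on either side, and the logFC at the 2 times differed by 0.13 ± 0.37 (SE 2 days against SE 6 h, adjusted p = 0.875). The call at 2 days held in 4 of 19 alternative settings, with adjusted p from 0.0427 to 0.401, and at 6 h *Neurod1* passed without SE 2 days replicate 1 (adjusted p = 0.0485) or replicate 2 (adjusted p = 0.0476).

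*Neurod1* (mm9 chr2:79292678-79296908, minus strand, 2 exons) overlaps *Cerkl* on the same strand and *Gm17325* on the other. *Cerkl* measured 38.21 and 53.28 CPM before SE, 20.01 and 13.77 CPM in the SE 6 h mice and 22.64 and 11.94 CPM in SE 2 days mice. It was called lower at 2 days with nearly the same difference (logFC = -1.45 ± 0.36, adjusted p = 0.0452), and over the 10 libraries it was the gene whose levels followed *Neurod1* most closely (r = 0.99). Whether the same tags were counted for both genes is not given in the sources used here, and the values of *Neurod1* are uncertain in this respect. The summed level of 6 measured markers of mature granule neurons was 620 to 707 CPM before SE, 453 to 559 CPM in the SE 6 h mice and 396 to 407 CPM in SE 2 days mice. It was 364 to 397 CPM in SE + LEV 2 days mice, where *Neurod1* was highest among the groups with SE, and its part in the difference was not tested. *Calb1*, 1 of these markers, measured 348.57 and 277.19 CPM before SE and 176.82 and 108.67 CPM in SE 6 h mice. In SE 2 days mice it measured 154.08 and 136.79 CPM. Against pre-SE mice, limma called 0 of the 6 at 6 h (2.96% of all genes) and 1, *Tdo2*, lower at 2 days (5.66%). Groups did not overlap at 6 h for 1 marker higher and 3 lower (49.9% of all genes). At 2 days this held for 0 higher and 4 lower (52%).

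Among the genes of neuroblasts and immature neurons, *Sox11* was higher 6 h after SE, and no change was called for *Dcx* or *Sox4*. *Sox11* encodes a SoxC transcription factor that activates neuronal genes in newborn neurons. The gene has 1 exon (mm9 chr12:28025562-28027574, minus strand) and overlaps no other annotated gene. It measured 24.00 and 23.73 CPM before SE, 116.91 and 58.38 CPM in the SE 6 h mice and 47.11 and 69.83 CPM in SE 2 days mice. The pre-SE mice were nearly equal and lay below all SE mice, while the SE 6 h mice differed from each other by more than the SE 2 days mice did. The level was 3.45-fold higher at 6 h (logFC = 1.79 ± 0.34, adjusted p = 0.0229) and 2.40-fold higher at 2 days, where it did not pass the threshold (logFC = 1.26 ± 0.34, adjusted p = 0.0619). SE 2 days and SE 6 h mice differed by a logFC of -0.53 ± 0.34 (adjusted p = 0.429). The call at 6 h was lost when pre-SE replicate 1 (adjusted p = 0.120), pre-SE replicate 2 (adjusted p = 0.114) or SE 6 h replicate 1 (logFC = 1.29, adjusted p = 0.115) was left out, and with only the groups compared in the model (adjusted p = 0.0613). At 2 days *Sox11* passed with only the groups compared (adjusted p = 0.0448) and without SE 6 h replicate 1 (adjusted p = 0.0366) or replicate 2 (adjusted p = 0.0360).

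*Sox4* encodes another SoxC factor with a role like that of *Sox11*. Its main entry (ENSMUSG00000076431, mm9 chr13:29040788-29045582, minus strand) measured 13.52 and 12.09 CPM before SE, 19.50 and 24.05 CPM in the SE 6 h mice and 15.39 and 16.86 CPM in SE 2 days mice. Both SE groups lay above the pre-SE mice without overlap, yet the logFC of 0.76 ± 0.25 at 6 h (adjusted p = 0.157) and of 0.33 ± 0.25 at 2 days (adjusted p = 0.531) did not pass the threshold. The second entry (ENSMUSG00000078309, chr13:29042607-29043011) spans 405 bases inside the first on the same strand. It measured 1.07 and 0.39 CPM before SE, 1.32 and 1.78 CPM in the SE 6 h mice and 0.72 and 0.48 CPM in SE 2 days mice, with only 8 tags in the library where it was lowest in tags, and how tags were divided between the 2 entries is uncertain.

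*Dcx* encodes doublecortin, a microtubule-binding protein that is a standard marker of neuroblasts and immature neurons. The gene (mm9 chrX:140290385-140367854, minus strand, 8 merged exons) overlaps no other. It measured 10.48 and 9.98 CPM before SE, 6.64 and 7.61 CPM in the SE 6 h mice and 8.18 and 4.63 CPM in SE 2 days mice. All 4 SE mice lay below both pre-SE mice. The logFC was -0.52 (95% interval -1.31 to 0.28, adjusted p = 0.479) at 6 h and -0.72 (-1.52 to 0.07, adjusted p = 0.301) at 2 days, so that a loss of up to more than 1 log2 unit and a small gain were both within the intervals.

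Read over all 7 rows, SE 6 h against pre-SE mice gave 1 call higher and 0 lower. In the same comparison 2.96% of all genes tested were called (2.76% higher and 0.202% lower). Groups did not overlap for 4 rows that were higher and 2 that were lower, which is 6 of 7 against 49.9% of all genes, and the unadjusted p was under 0.05 for 3 higher and 1 lower, against 17.7% of all genes. The median logFC was 0.76 over the 7 rows and -0.13 over all genes. SE 2 days against pre-SE mice gave 1 call higher and 1 lower, against 5.66% of all genes called (5.07% higher and 0.593% lower). Groups did not overlap for 3 rows higher and 2 lower, against 52% of all genes, the unadjusted p was under 0.05 for 2 higher and 1 lower, against 19.8%, and the medians were 0.13 and -0.03. In SE 2 days against SE 6 h mice limma called 0 of 7, against 4.25% of all genes (3.14% higher and 1.11% lower). Only 1 row had an unadjusted p under 0.05, the short *Sox4* entry (logFC = -1.24 ± 0.54), against 20.1% of all genes, and groups did not overlap for 2 rows higher and 2 lower, against 51.1%.

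**Figure D2:**
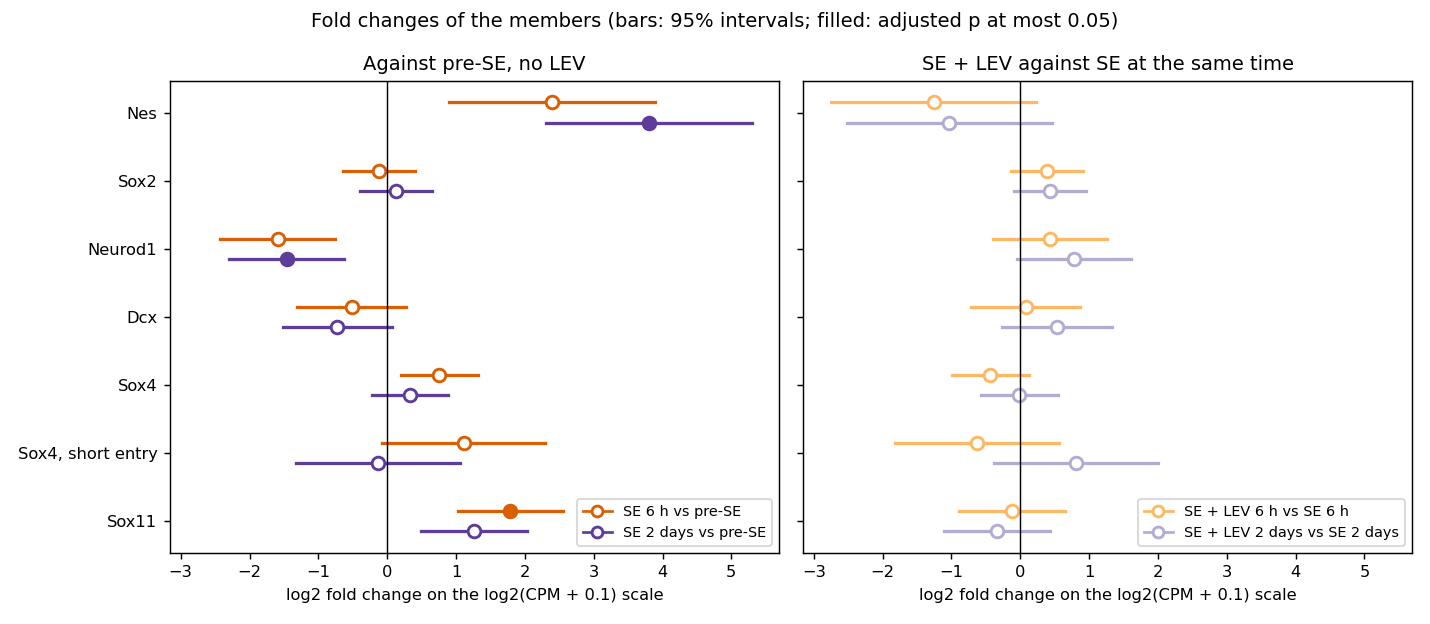
The logFC of each member row with its 95% interval from limma, for SE against pre-SE mice (left) and SE + LEV against SE mice at the same time (right). Filled points were called. *Sox11* at 6 h and *Nes* and *Neurod1* at 2 days are filled on the left, and every interval on the right includes 0.

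The second question was whether LEV altered these levels after SE. No member was called in SE + LEV against SE mice at either time. At 6 h, *Nes* measured 5.12 and 8.06 CPM with LEV against 13.89 and 17.40 CPM without it. Both LEV mice lay below both SE mice, and the logFC of -1.26 (95% interval -2.75 to 0.23) had an adjusted p of 1. At 2 days, *Nes* measured 47.87 and 8.50 CPM with LEV against 34.51 and 49.86 CPM without it. 1 LEV mouse lay within the range of the SE mice and the other below both, and the logFC of -1.03 (-2.52 to 0.46, adjusted p = 1) turned to 0.21 without SE + LEV 2 days replicate 2.

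*Sox2* was the member that lay higher with LEV, without overlap, at both times. It measured 37.55 and 40.51 CPM in SE + LEV 6 h mice and 42.11 and 54.87 CPM in SE + LEV 2 days mice, with both mice above both SE mice of the same time. The logFC was 0.38 (95% interval -0.14 to 0.91) at 6 h and 0.43 (-0.09 to 0.96) at 2 days, each with an adjusted p of 1. *Neurod1* measured 19.50 and 14.61 CPM in SE + LEV 6 h mice, overlapping the SE mice (logFC = 0.43, -0.40 to 1.26). It measured 20.73 and 26.74 CPM in SE + LEV 2 days mice, above both SE 2 days mice (logFC = 0.78, -0.05 to 1.61, adjusted p = 1). *Cerkl* again moved with it, with 24.05 and 33.52 CPM in SE + LEV 2 days mice.

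For the genes of immature neurons, *Sox11* measured 63.10 and 91.46 CPM in SE + LEV 6 h mice and 49.15 and 41.85 CPM in SE + LEV 2 days mice, overlapping the SE mice both times. The logFC was -0.12 (95% interval -0.89 to 0.65) at 6 h and -0.34 (-1.10 to 0.43) at 2 days. *Dcx* measured 7.91 and 7.12 CPM in SE + LEV 6 h mice and 7.13 and 11.25 CPM in SE + LEV 2 days mice and also overlapped the SE mice. The main *Sox4* entry measured 16.81 and 15.18 CPM in SE + LEV 6 h mice, below both SE 6 h mice (logFC = -0.44, -0.99 to 0.12), and 16.73 and 15.20 CPM in SE + LEV 2 days mice, where the logFC was -0.01 (-0.57 to 0.54). The short entry measured 1.20 and 0.76 CPM at 6 h and 0.78 and 1.56 CPM at 2 days with LEV.

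For SE + LEV 6 h against SE 6 h mice limma called 0 of 7 rows and 0.0126% of all genes. The unadjusted p was under 0.05 for 0 of 7 rows and 4.58% of all genes, and groups did not overlap for 1 row higher and 3 lower, against 29.5% of all genes. For SE + LEV 2 days against SE 2 days mice limma called 0 of 7 rows and 0% of all genes, the unadjusted p was under 0.05 for 0 of 7 rows and 2.7% of all genes, and groups did not overlap for 3 rows higher and 0 lower, against 27.4%. The LEV effect at 2 days was also compared with that at 6 h. Limma called 0 of 7 rows and 0% of all genes in this test, and the unadjusted p was under 0.05 for 0 of 7 rows and 2.38% of all genes. The difference between the effects was largest for the short *Sox4* entry (1.44 ± 0.76) and smallest for *Sox2* (0.05 ± 0.33).

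Mice with SE and LEV were also compared with pre-SE mice, which are the same 2 control mice as above. At 6 h *Sox11* had a logFC of 1.67 ± 0.34 (adjusted p = 0.0962), *Neurod1* of -1.16 ± 0.37 (adjusted p = 0.311) and *Nes* of 1.13 ± 0.67 (adjusted p = 0.619). Limma called 0 of 7 rows, against 0.322% of all genes. The unadjusted p was under 0.05 for 1 row higher (*Sox11*) and 1 lower (*Neurod1*), against 9.38% of all genes, and groups did not overlap for 4 rows higher and 2 lower, against 42.5%. At 2 days *Nes* had a logFC of 2.77 ± 0.67 (adjusted p = 0.0626), *Sox11* of 0.92 ± 0.34 (adjusted p = 0.305) and *Sox2* of 0.56 ± 0.24 (adjusted p = 0.397). Limma called 0 of 7 rows, against 2.85% of all genes, the unadjusted p was under 0.05 for these 3 rows and 10.8% of all genes, and groups did not overlap for 4 rows higher and 1 lower, against 40.1%. *Nes* passed the threshold (logFC = 4.01, adjusted p = 0.00199) when SE + LEV 2 days replicate 2, the mouse with 8.50 CPM, was left out.

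By group mean, the order of *Nes* was pre-SE (3.04 CPM), SE + LEV 6 h (6.59 CPM), SE 6 h (15.6 CPM), SE + LEV 2 days (28.2 CPM) and SE 2 days (42.2 CPM), and SE + LEV 2 days overlapped both of its neighbours. *Sox11* followed the order pre-SE (23.9 CPM), SE + LEV 2 days (45.5 CPM), SE 2 days (58.5 CPM), SE + LEV 6 h (77.3 CPM) and SE 6 h (87.6 CPM), and the 4 SE groups overlapped their neighbours. *Neurod1* was highest before SE (38.9 CPM), followed by SE + LEV 2 days (23.7 CPM), SE + LEV 6 h (17.1 CPM), SE 2 days (14.3 CPM) and SE 6 h (12.8 CPM), and the 3 lowest groups overlapped. *Sox2* ran from 30.0 CPM in SE 6 h to 48.5 CPM in SE + LEV 2 days mice. *Dcx* ran from 6.41 CPM in SE 2 days to 10.2 CPM in pre-SE mice with overlap at every step. The main *Sox4* entry ran from 12.8 CPM in pre-SE to 21.8 CPM in SE 6 h mice, and the 3 groups between them overlapped.

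The genes with the most similar levels over the 10 libraries were found by Pearson's r on log2(CPM + 0.1), as a description only, since the libraries share their groups. *Clcf1*, *Eif4ebp1* and *Vasp* followed *Nes* (each r = 0.98). *Srr* (r = 0.97) and *Pnma2* (r = 0.96) followed *Neurod1* after *Cerkl*. *Nhsl2*, *Syt3* and *Efcab1* followed *Dcx* (each r = 0.97), *Baz1a*, the entry *Gm20403* with the same r, and *Zmiz1* followed *Sox11* (each r = 0.96), and *Rdh10*, *Procr* (each r = 0.97) and *Tspan31* (r = 0.96) followed the main *Sox4* entry. The closest genes to *Sox2* were less similar, with *Ptprb* at r = 0.88, *Cmbl* at r = 0.86 and *Gmip* at r = 0.85.

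The other genes of the lineage were taken from 5 lists by role, some of whose members overlap. Of 16 measured genes of radial glia-like stem cells, 2 rose and 1 fell at each time, against 2.96% of all genes called at 6 h and 5.66% at 2 days. *Vim*, the filament partner of nestin, measured 18.86 and 14.68 CPM before SE, 90.70 and 90.79 CPM in the SE 6 h mice and 367.90 and 736.54 CPM in SE 2 days mice (logFC = 2.44 ± 0.43, adjusted p = 0.0144, and 4.96 ± 0.43, adjusted p = 0.000728). *Cdk6*, a cell cycle kinase, rose by 2.36 and 1.85 on the log2 scale from low levels. It measured 0.97 and 0.66 CPM before SE and 4.14 and 4.93 CPM in SE 6 h mice. In SE 2 days mice it measured 2.93 and 3.39 CPM. *Hes5*, a Notch target that keeps stem cells undifferentiated, measured 19.97 and 36.22 CPM before SE, 5 and 4.93 CPM in the SE 6 h mice and 4.49 and 2.10 CPM in SE 2 days mice (logFC = -2.41 and -3.09). The *Hes5* call at 6 h was not stable when single mice were left out, with a logFC from -2.84 to -1.99. The list's median logFC was -0.13 at 6 h and 0.08 at 2 days, near those of all genes. Leaving out single mice gave 0 to 3 calls at 6 h, with 0 without pre-SE replicate 2 or SE 6 h replicate 2, and 1 to 5 calls at 2 days, with 1 without pre-SE replicate 2 or SE 2 days replicate 2.

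The astrocyte filament gene *Gfap* was higher at 2 days, as *Nes* and *Vim* were, while the other astrocyte markers moved in both directions. *Gfap* measured 245.62 and 230.22 CPM before SE, 394.25 and 782.89 CPM in SE 6 h mice, 2281.84 and 3642.11 CPM in SE 2 days mice (logFC = 3.60, adjusted p = 0.000955) and 3070.92 and 2311.63 CPM in SE + LEV 2 days mice. Of 10 astrocyte markers, 2 were called higher at 2 days (*Gfap* and *Aqp4*) and 0 lower, against 5.66% of all genes called. The unadjusted p was under 0.05 for 3 higher and 4 lower, against 19.8% of all genes, and the median logFC was -0.23. The summed level of the 10 markers was 2812 to 3398 CPM before SE and 3925 to 5327 CPM in SE 2 days mice, and without *Gfap* the sum of the other 9 was 2582 to 3153 CPM before SE and 1643 to 1685 CPM in SE 2 days mice. The sum of 9 endothelial and pericyte markers was 109 to 130 CPM before SE, 177 to 264 CPM in the SE 6 h mice and 172 to 188 CPM in SE 2 days mice. Of these 9, 1 was called higher at 6 h, against 2.96% of all genes called, and 0 at 2 days, against 5.66%. In all groups no marker of either list was at 0. In SE + LEV 2 days mice, replicate 1 was the higher of the pair for *Nes*, for *Vim* (798.11 and 314.00 CPM) and for *Gfap*. Among the other marker sums, 5 markers of oligodendrocyte precursors ran from 310 to 314 CPM before SE and from 224 to 371 CPM in SE 2 days mice, 6 of oligodendrocytes from 4967 to 5400 CPM and from 1777 to 2725 CPM, 7 of mature neurons from 9002 to 10406 CPM and from 4933 to 6173 CPM, and 4 of Cajal-Retzius cells from 76.7 to 128 CPM and from 48.2 to 63.6 CPM. Most of the Cajal-Retzius sum was *Calb2*, with 65.25 and 102.43 CPM before SE and 43.88 and 25.84 CPM in SE 2 days mice. The other markers were *Reln* (logFC = 0.32 at 2 days), *Trp73* (-0.21) and *Lhx5* (-0.32). Limma called 0 of the 4 at 2 days, against 5.66% of all genes. Of 8 markers of NK and T cells, 0 were analysed. The part of any of these cell types in the member levels was not tested.

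**Figure D3:**
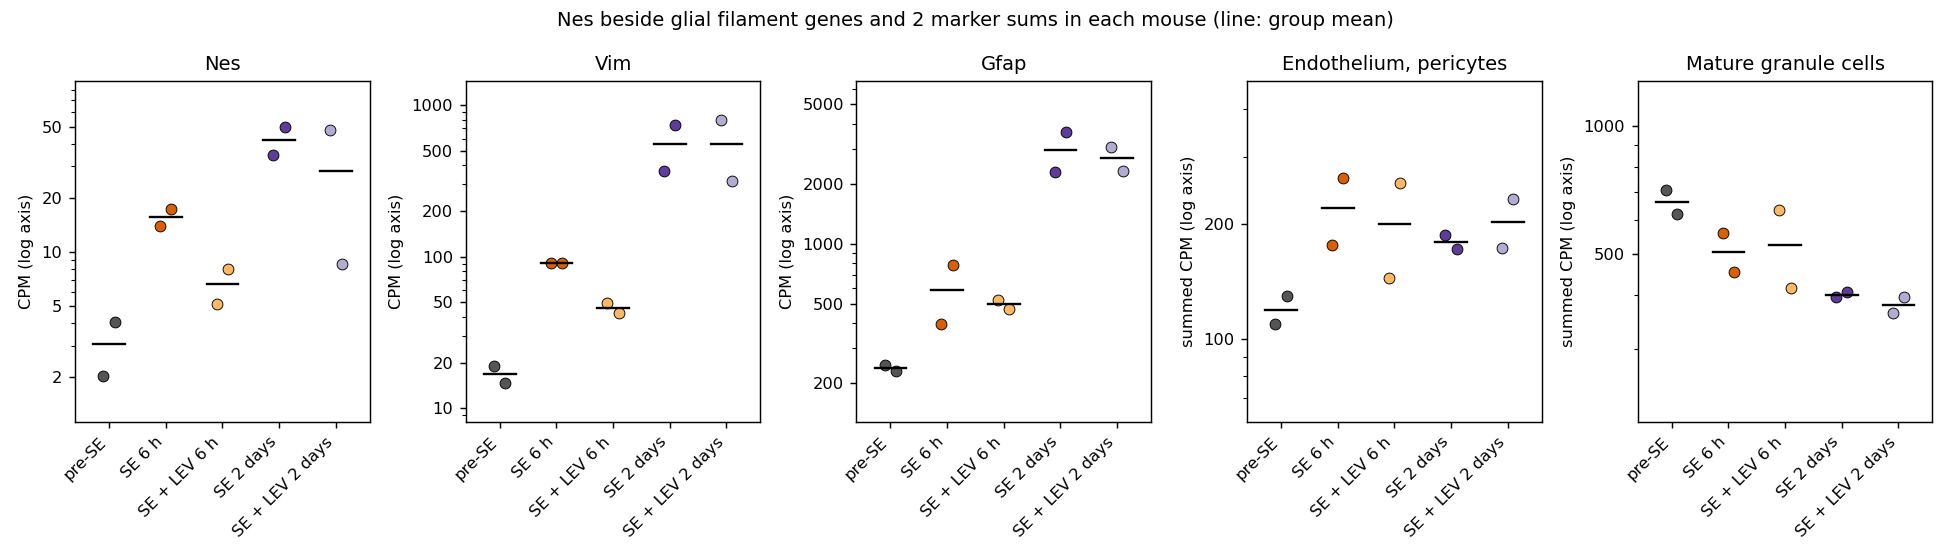
CPM of *Nes*, *Vim* and *Gfap* and summed CPM of 9 endothelial and pericyte markers and of 6 mature granule neuron markers in each mouse (log axes), with a line at the group mean. By group mean, *Nes*, *Vim* and *Gfap* are highest at 2 days with or without LEV, whereas the granule neuron sum is lowest there. For *Nes*, 1 of the SE + LEV 2 days mice (8.50 CPM) lies below both SE 6 h mice (13.89 and 17.40 CPM).

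Of 7 measured genes of intermediate progenitors, 2 rose and 1 fell at 6 h, against 2.96% of all genes called, and 3 rose at 2 days, against 5.66%. The genes that rose at 6 h were *Gadd45g* (27.83 and 18.14 CPM before SE, 834.53 and 483.06 CPM in SE 6 h mice, logFC = 4.81) and *Btg2* (9.69 and 13.00 CPM before SE, 80.63 and 85.85 CPM in SE 6 h mice, logFC = 2.88). Both are also known as stress and activity-induced genes in neurons. *Insm1*, a zinc finger factor of dividing neuronal progenitors, measured 9.35 and 9.55 CPM before SE and 3.59 and 1.58 CPM in SE 6 h mice (logFC = -1.94). Neither the *Insm1* call (logFC from -2.51 to -1.37) nor the *Btg2* call (2.67 to 3.09) was stable when single mice were left out. At 2 days *Gadd45g* (logFC = 2.87), *Btg2* (logFC = 2.69) and *Cdk1* (logFC = 4.16) were higher. The *Gadd45g* and *Btg2* calls at 2 days were not stable either, with logFC from 2.36 to 3.39 and from 1.86 to 3.51. Leaving out single mice gave 1 to 3 calls at 6 h, with 1 without pre-SE replicate 1 or SE 6 h replicate 2.

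The proliferation list showed the clearest step between the times. At 6 h 1 of 11 genes rose, the replication clamp gene *Pcna* (logFC = 1.45), and this call was lost without any 1 of the pre-SE, SE 6 h or SE 2 days mice. At 2 days 7 of 11 rose and 0 fell, against 5.66% of all genes called then and 2.96% at 6 h. The unadjusted p at 2 days was under 0.05 for 10 higher and 1 lower, against 19.8% of all genes. The lower gene was *Ccnd2*, with 38.97 and 36.67 CPM before SE and 20.48 and 14.19 CPM in SE 2 days mice. *Cdk1*, the mitotic kinase gene that is also in the progenitor list, measured 0.34 and 0.64 CPM before SE, 0.35 and 0.41 CPM in the SE 6 h mice and 9.03 and 11.27 CPM in SE 2 days mice. *Top2a*, a topoisomerase gene of dividing cells, measured 0.41 and 0.91, 0.42 and 0.69, and 8.69 and 11.46 CPM in the same groups (logFC = 3.81 at 2 days). The list's median logFC was -0.37 at 6 h and 3.40 at 2 days, and without SE 2 days replicate 2 the calls at 2 days fell to 4. In SE + LEV 2 days mice 6 of 11 rose against pre-SE mice, among them *Cdk1* with 14.49 and 5.91 CPM, and 3 rose without SE + LEV 2 days replicate 1. The main model called 2.85% of all genes in this comparison, and with only these 2 groups in the model limma called 0 of 11 and 0 of all genes. Microglia are known to divide after SE, and 8 markers of microglia and macrophages summed to 381 to 445 CPM before SE, 270 to 300 CPM in the SE 6 h mice and 897 to 1069 CPM in SE 2 days mice, and their part in these levels was not tested.

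Of 22 measured genes of neuroblasts and immature neurons, limma called 0 at 6 h, against 2.96% of all genes. The unadjusted p at 6 h was under 0.05 for 1 higher and 3 lower, against 17.7% of all genes. At 2 days 0 rose and 1 fell, against 5.66% of all genes called. It was *Bhlhe22*, a helix-loop-helix factor of young excitatory neurons, with 89.43 and 74.72 CPM before SE and 33.58 and 20.20 CPM in SE 2 days mice (logFC = -1.65). This call was lost without either pre-SE mouse or SE 2 days replicate 2. The unadjusted p at 2 days was under 0.05 for 1 higher and 6 lower, against 19.8% of all genes, and groups did not overlap for 2 higher and 11 lower, against 52%. The list's median logFC was -0.26 at 6 h and -0.39 at 2 days, beside -0.13 and -0.03 over all genes. Of 15 measured niche signals, 1 rose at 6 h, the neurotrophin gene *Bdnf* (51.97 and 39.55 CPM before SE, 230.87 and 260.58 CPM in SE 6 h mice, logFC = 2.43), a call lost without any 1 of these 4 mice. At 2 days limma called 0 niche signals, against 5.66% of all genes called then and 2.96% at 6 h. At 2 days 3 niche signals lay higher and 1 lower with an unadjusted p under 0.05, against 19.8% of all genes. In SE + LEV against SE mice limma called 0.0126% of all genes at 6 h and 0% at 2 days. At either time it called 0 genes of the 5 lists. *Gadd45g* had the largest difference among them at 6 h, with 109.18 and 39.75 CPM with LEV (logFC = -3.27 ± 0.54, unadjusted p = 0.000110, adjusted p = 0.113).

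**Figure D4:**
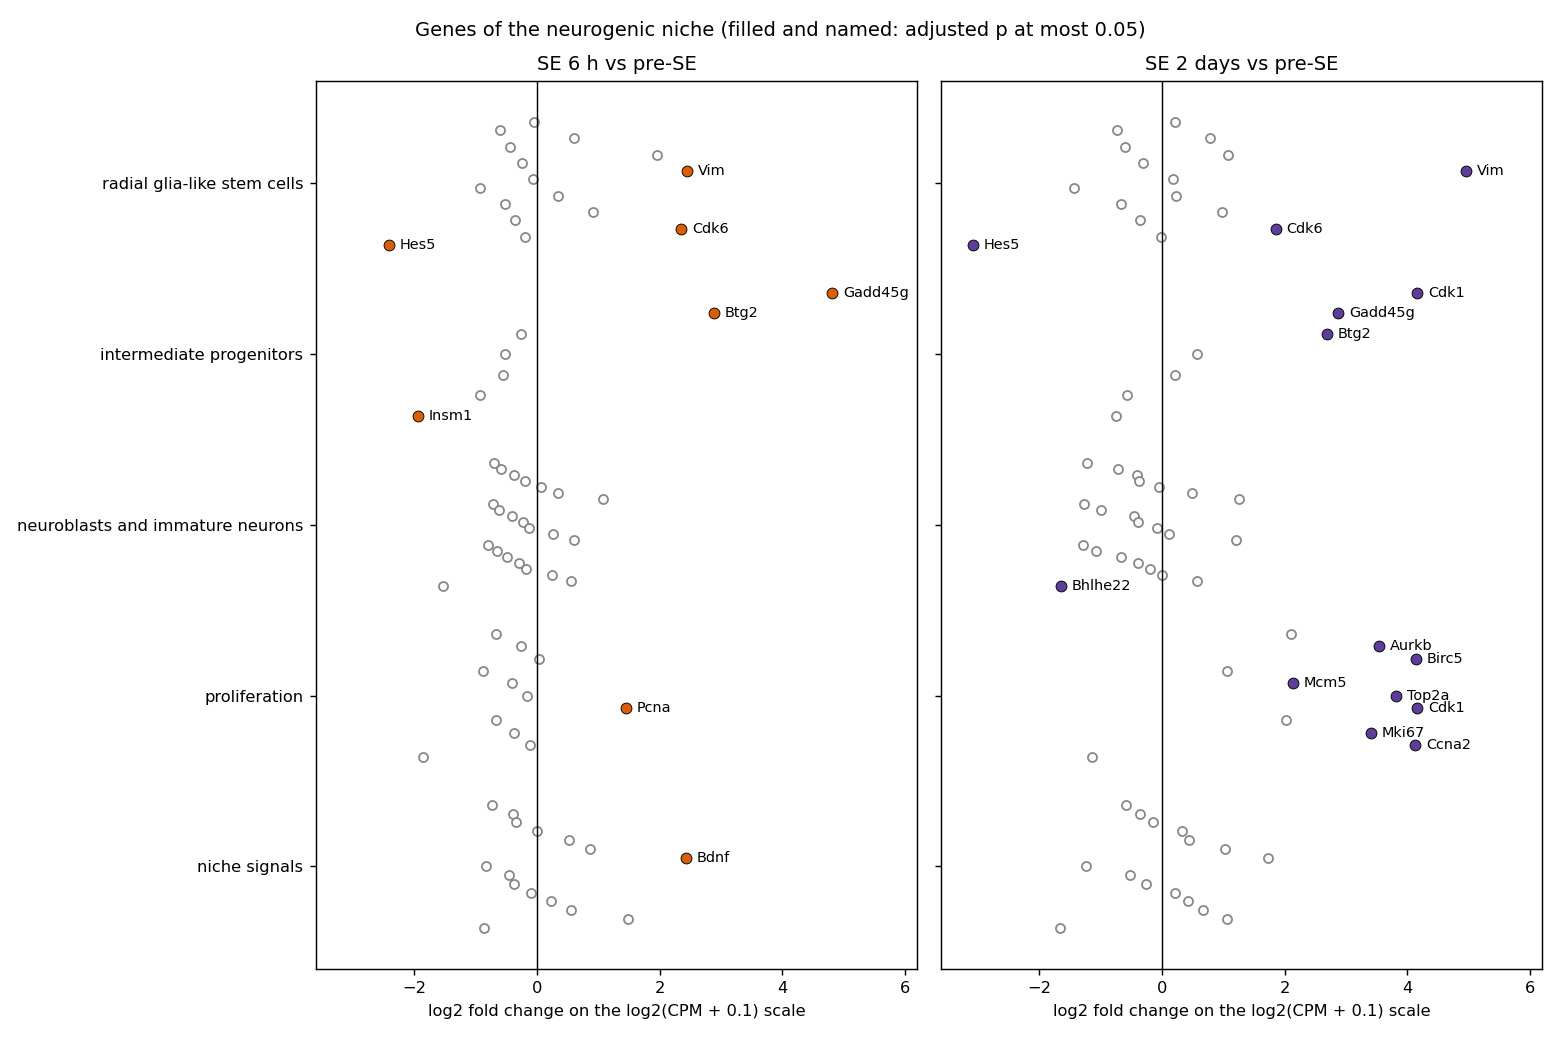
The logFC of each measured gene of the 5 lists in SE 6 h (left) and SE 2 days (right) against pre-SE mice, with points spread vertically for legibility only. Filled, named points were called. The proliferation genes stand mostly near or below 0 at 6 h. At 2 days they lie to the right except *Ccnd2*, which lies to the left, and 7 of 11 were called. The neuroblast genes have medians of -0.26 at 6 h and -0.39 at 2 days.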

How the data were processed

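CAGE libraries of 10 mouse hippocampi were used, with 2 mice per group as labelled. Per the labels and methods, the authors mapped tags to mm9 with BWA 0.7.17 and HISAT2 2.0.5, grouped the tags into clusters with RECLU, left out those below 0.1 CPM and deposited 1 CPM value for each gene and mouse. How clusters were summed to genes, and whether strand was used, is not given in the sources used here. The authors tested tag counts with edgeR 3.22.5. The deposited CPM were tested here with limma 3.58.1 (R 4.3.3) on log2(CPM + 0.1), with 5 group means, a mean-variance trend and Benjamini-Hochberg adjustment over genes that reached 0.1 CPM in 2 or more libraries. The fit was tested on simulated data. Tag totals were estimated from the steps between CPM values and used for depth only. The mice of a group are taken as separate animals. The p-values set differences between groups against the spread between mice within groups, estimated from all groups and genes together.

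The members and gene lists were chosen with earlier results of these data known. Named were all members, the up to 4 called list genes per list and comparison with the largest logFC in size, markers beside a result, genes that overlap a member, and the 3 genes most similar to each member among those with a mean of at least 1 CPM. *Gadd45g* with LEV was named after its values were seen. Gene positions are from GENCODE M1 (mm9) and promoters from RefSeq (GRCm38.p6). The alternatives were pseudocounts of 0.01, 0.5 and 1 CPM, no filter and a filter of 1 CPM, median-of-ratios rescaling, replicate block, no trend, only the groups compared, and each mouse left out. The crossed block and the sum of both *Sox4* entries were added after seeing the data. Tables and plots used Python 3.11.15, numpy 2.4.6, pandas 2.3.3 and matplotlib 3.10.9.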

Additional observations from a re-analysis of the deposited data

Results flagged for a closer look

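No member differed between SE 2 days and SE 6 h mice beyond the threshold. Called were 11 genes of the 5 lists (limma, adjusted p of at most 0.05), against 4.25% of all genes. They were 2 of 16 stem cell genes, 7 of 11 proliferation genes, 1 of 15 niche signals and 1 of 22 genes of immature neurons. *Cdk1* is also in the progenitor list, where 1 of 7 was called. The effect of SE was higher at 2 days than at 6 h for *Vim* (logFC = 2.52) and *Id3* (1.68) among the stem cell genes, for *Cdk1* (4.41), *Birc5* (4.81), *Aurkb* (4.21), *Top2a* (3.98), *Ccna2* (5.01), *Mki67* (5.25) and *Mcm5* (2.51) among the proliferation genes, and for *Wnt7b* (1.41) among the niche signals. It was lower for *Bhlhe22* (-1.89) among the genes of immature neurons. *Mki67* measured 0.19 and 0 CPM in the SE 6 h mice and 5.64 and 7.26 CPM in SE 2 days mice, so that its logFC depends on the pseudocount. Groups of 2 mice are too small for a check of single outlying mice.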

How the results depend on the processing

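The deposited CPM are rounded, so edgeR, DESeq2 and TMM scaling on tag counts were not run. Calls rest on 2 mice per group, and where 1 mouse was left out the other was assumed to vary like the other groups. Over all alternatives, the calls among all genes ran from 113 to 554 (469 as reported) for SE 6 h and from 248 to 1158 (897) for SE 2 days against pre-SE, from 160 to 905 (674) for SE 2 days against SE 6 h and from 0 to 637 (451) for SE + LEV 2 days against pre-SE, with 0 with only the groups compared. Of SE 6 h against pre-SE, 0 to 2 members were called when single mice were left out, and with only the groups compared *Nes* was called and *Sox11* was not. Of SE 2 days against pre-SE, the count fell from 2 to 1 with pseudocounts of 0.01, 0.5 and 1 CPM, no filter, median-of-ratios rescaling, the replicate block and no mean-variance trend, each through the loss of *Neurod1*, and ran from 0 to 2 without single mice. Of SE 2 days against SE 6 h, 1 (*Nes*, adjusted p = 0.0405) was called with only the groups compared. Of SE + LEV 2 days against pre-SE, 1 was called with the crossed block and 0 to 1 without single mice. For *Nes* at 2 days the adjusted p was 0.0199 with the replicate block. Correlations of same-numbered mice ran from -0.44 (pre-SE with SE + LEV 2 days) to 0.34 (pre-SE with SE 6 h). The main model took the mice as unpaired. Whether the numbers stand for a pairing or a batch was not tested, nor were the causes of these moves.

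Rescaling raised the logFC of all genes at 6 h by 0.13, lowered that of SE 2 days against SE 6 h by 0.10 and turned *Sox2* at 6 h to 0.0086, and summing the *Sox4* entries turned *Sox4* with LEV at 2 days to 0.035. None of the members whose sign turned was called in that comparison. Without single mice, *Sox2* ran from -0.28 to 0.046 at 6 h and from -0.035 to 0.30 at 2 days, the short *Sox4* entry from -0.76 to 0.49 at 2 days and from -0.15 to 1.11 in SE + LEV 6 h against pre-SE, and *Dcx* from -0.51 to 0.14 in SE + LEV 2 days against pre-SE. For SE 2 days against SE 6 h, *Neurod1* ran from -0.28 to 0.54 and *Dcx* from -0.61 to 0.20. For LEV at 6 h, *Dcx* ran from -0.020 to 0.17 and *Sox11* from -0.62 to 0.38, and at 2 days *Nes* from -2.27 to 0.21 and *Sox4* from -0.083 to 0.054. For the LEV effect at 2 days against 6 h, *Nes* ran from -1.01 to 1.47, *Sox2* from -0.14 to 0.24, *Neurod1* from -0.058 to 0.75 and *Sox11* from -0.72 to 0.28.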
